A study of Mus musculus with 20 samples.

Results

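The clustered protocadherins are cell-surface adhesion proteins of the cadherin superfamily, encoded by tandem gene arrays called the alpha, beta and gamma clusters. All gene symbols of the form Pcdha, Pcdhb, Pcdhga, Pcdhgb, Pcdhgc or Pcdhac followed by a number were taken from the expression tables of islets of a whole-body Cpeb1 knockout line, and they were selected on their summed count there being above 0, with no other measured value used. This gave 58 of 55416 listed genes: 14 alpha, 22 beta and 22 gamma genes. No gene of that name had a sum of 0, and the lowest sums were 168 counts for Pcdhgb8, 208 for Pcdhb2 and 304 for Pcdhb15. The symbol Pcdha11 stands for 2 gene entries, ENSMUSG00000007440 and ENSMUSG00000102206, which are named by identifier below.

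RNA was measured by poly(A)-selected RNA sequencing of isolated pancreatic islets in 20 samples of C57BL/6J mice, and the study asked what loss of the RNA-binding protein Cpeb1 does to islet gene expression. The whole-body line had 6 Cpeb1 KO/KO samples (3 females of 188, 165 and 98 days and 3 males of 155, 111 and 139 days) and 6 Cpeb1 +/+ controls (3 females of 188, 188 and 109 days and 3 males of 123, 122 and 111 days). The beta-cell line had 4 Cpeb1 flx/flx; Ins1-Cre/+ samples and 4 Cpeb1 +/+; Ins1-Cre/+ controls, 2 of each sex per genotype, at 108 and 107 days in females and 111 and 80 days in males. All 8 samples of the beta-cell line carried Ins1-Cre, a recombinase made from the insulin gene Ins1 in beta cells, so the other cells of those islets should keep an intact Cpeb1 gene. The whole-body libraries were batch 1 and the beta-cell libraries batch 2, so that line and batch cannot be told apart. Islets hold several cell types, and in such bulk samples fewer cells of a type and less RNA per cell cannot be told apart.

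Clustered protocadherins bind copies of themselves on neighbouring cells and are best known in neurons, where each cell transcribes its own small selection of the genes and uses it to tell its own branches from those of other cells. In the alpha and gamma clusters a variable exon with its own promoter carries the outer part, the membrane segment and part of the tail of the protein, and is spliced to constant exons that give every isoform of the cluster the same tail end. The beta genes are single exons without such constant exons. The genes at the end of the alpha and gamma clusters, Pcdhac1, Pcdhac2, Pcdhgc3, Pcdhgc4 and Pcdhgc5, are called C-type isoforms and are chosen less randomly than the others. Promoter choice in neurons involves the DNA-binding protein CTCF, cohesin and DNA methylation, and the proteins signal through tyrosine kinases and actin regulators and are cut by the protease ADAM10 and gamma-secretase.

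In the GENCODE annotation of GRCm38 (mm10), all 58 genes lie on the plus strand of chromosome 18: alpha at chr18:36930184-37187661, beta at chr18:37264938-37524479 and gamma at chr18:37661793-37841873. The 14 alpha genes each share at least 2860 bases of exon with other alpha genes, a median of 53.4% of their exon length. The 22 gamma genes share at least 2116 bases, a median of 44.7%. All 22 beta genes have 1 exon, and only Pcdhb21 and Pcdhb22 overlap, by up to 455 bases. Reads from the constant exons cannot be assigned to 1 gene by position, so the counting program divided them between genes, and the level of each alpha and gamma gene is uncertain by that division. Exons of 4 alpha, 1 beta and 8 gamma genes also overlap genes on the other strand. No strand setting was stated, so reads from those pairs may be mixed.

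Library totals ran from 40124922 to 112320368 counts. The library of whole-body control female 1 stood apart, with 60.5% of its counts on the ribosomal RNA gene Rn18s against 0.124% to 7.49% in the other 19, and each female or whole-body result below includes it unless stated. Cpeb1 itself lay at 25.0 to 38.0 CPM (counts scaled to a common library total after TMM normalization) in the 6 whole-body knockouts and at 38.3 to 65.3 CPM in their controls, with control female 3 the lowest control. Cpeb1 in the beta-cell line lay at 27.7 to 30.3 CPM in knockouts and 50.8 to 69.2 CPM in controls. All 9 beta-cell markers, led by the insulin genes, exceeded 1 CPM in every library, and so did all 9 acinar (exocrine) markers, none of which defines an islet cell.

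Islets contained transcripts of all 3 clusters, and gamma genes made up most of them. All 58 genes passed the low-count filter in the whole-body line, and 57 of 57 listed genes did so in the beta-cell line, whose tables for males did not list Pcdhgb8. The order and shares of the genes are given here as CPM per kb of exon. On that scale gamma genes held 76.8% ± 2.38 (SD, n = 12) of the summed level in the whole-body line, beta genes 12.6% ± 0.83 and alpha genes 10.6% ± 2.08. In the beta-cell line the shares were 78.9% ± 2.69 (SD, n = 8), 12.01% ± 1.57 and 9.12% ± 1.69. Without scaling by exon length, a mean above 1 CPM was reached by 20 of 22 gamma, 9 of 22 beta and 10 of 14 alpha genes in the whole-body line.

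**Figure D1:**
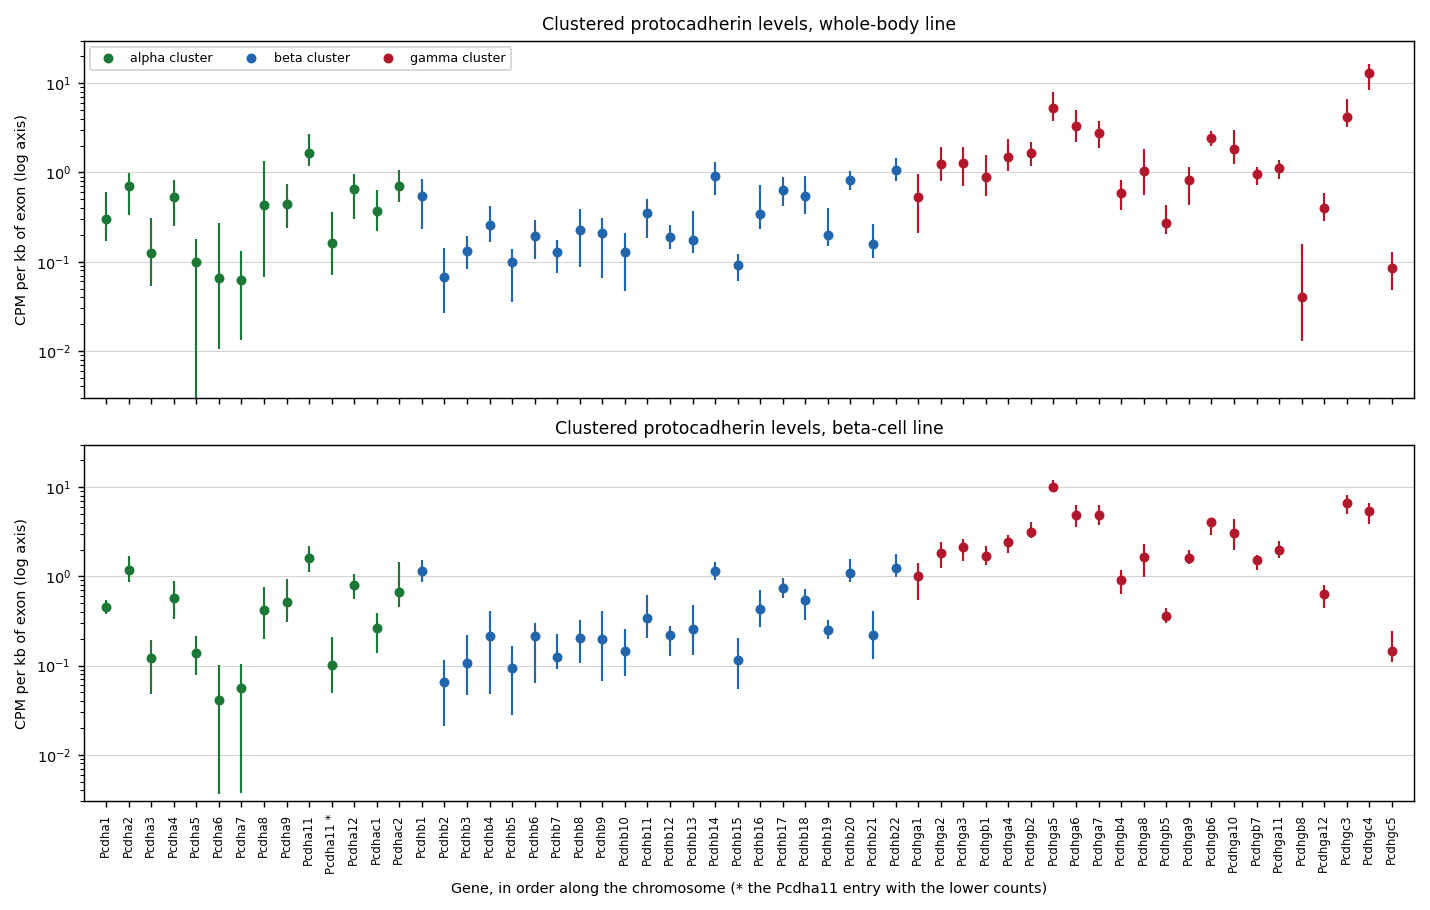
Level of each clustered protocadherin gene in CPM per kb of exon (log axis) in the whole-body line (top, 12 libraries) and the beta-cell line (bottom, 8 libraries). Points are means and lines run from the lowest to the highest library, ending at the axis floor where a library was at 0 (Pcdha5, control female 1). Pcdhgc4 is the highest point of the top panel at 13.1 CPM per kb, and Pcdhga5 that of the bottom panel at 10.04 CPM per kb.

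Pcdhgc4, a C-type gamma gene, had the highest level of the family in the whole-body line, at 13.1 ± 2.21 CPM per kb (SD, n = 12). Its lowest library, at 8.33 CPM per kb, was above the highest library of Pcdhga5, the next gene in order, at 7.91 CPM per kb. Pcdhga5 followed with 5.30 ± 1.35 CPM per kb and the C-type gene Pcdhgc3 with 4.18 ± 1.05. The ranges of these neighbours over libraries overlapped, but Pcdhga5 was above Pcdhgc3 within every library. Pcdhga6 (3.36), Pcdhga7 (2.77), Pcdhgb6 (2.44), Pcdhga10 (1.85) and Pcdhgb2 (1.67 CPM per kb) came after them, each with a range over libraries that overlapped that of its neighbour. The alpha gene with the highest level was Pcdha11 (ENSMUSG00000007440) with 1.64 ± 0.44 CPM per kb, ninth in the order and followed by Pcdhga4 (1.5), Pcdhga3 (1.28) and Pcdhga2 (1.25). The highest beta gene, Pcdhb22, reached 1.08 ± 0.22 CPM per kb. In CPM, without scaling by exon length, Pcdhgc4 averaged 73.5, above 91.6% of all genes tested. The other C-type genes were not all high: Pcdhac2 had 0.71 CPM per kb and Pcdhgc5 0.08 CPM per kb.

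In the beta-cell line the order at the top was different: Pcdhga5 had 10.04 ± 1.04 CPM per kb (SD, n = 8), Pcdhgc3 6.72 ± 1.19 and Pcdhgc4 5.35 ± 1.09. Pcdhgc3 and Pcdhgc4 overlapped there, as did Pcdhga6 (4.86) and Pcdhga7 (4.83 CPM per kb). As a share of the summed gamma level in CPM per kb, Pcdhgc4 held 18.1% to 38.2% in the 12 whole-body libraries and 6.58% to 11.2% in the 8 beta-cell libraries. The ranges do not meet. No test was made of this difference, since the lines were separate batches.

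In the whole-body line, most clustered protocadherins had values below controls in knockout females, 45 of 58 in all and 21 of 22 in the gamma cluster, while in males the gamma genes lay on both sides of 0. None of the 58 genes passed the threshold (adjusted p under 0.05 over all genes) in either sex with edgeR's quasi-likelihood test. In females 9 of 58 genes were lower at an unadjusted p under 0.05 and 1 was higher. The median log2 difference (knockout minus control) in females was -0.39 over the 58 genes and -0.46 over the gamma genes, against 0.01 over all 18359 genes tested. In males the medians were -0.14 over the 58 genes and 0.08 over the gamma genes, against 0.02 over all genes. The female median over the members was -0.21 without control female 1, and the male median was -0.07 without control male 2 and, over the gamma genes, -0.11 without knockout male 3.

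Among all genes edgeR called 0.00545% in females and 0.0218% in males, so a count of 0 among 58 members is close to the background. The deleted gene Cpeb1 was not called either, at -0.93 in each sex (edgeR adjusted p = 0.444 in females and 0.523 in males). It was called in the beta-cell line (-1.06, edgeR adjusted p = 0.0224). A count of 0 here therefore does not show that the members were unchanged. At an unadjusted p under 0.05 stood 17.2% of the members and 11.2% of all genes in females, and 6.90% and 7.47% in males. DESeq2 called 4 members in females (Pcdhgc3, Pcdhgb1, Pcdhga5 and Pcdhga4, all lower; 6.90%, against 0.659% of all genes). It called none in males, where it called 293 of all genes and 7 members had an unadjusted p under 0.05. limma-voom called none in either sex, with 7 members at an unadjusted p under 0.05 in females and 6 in males.

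**Figure D2:**
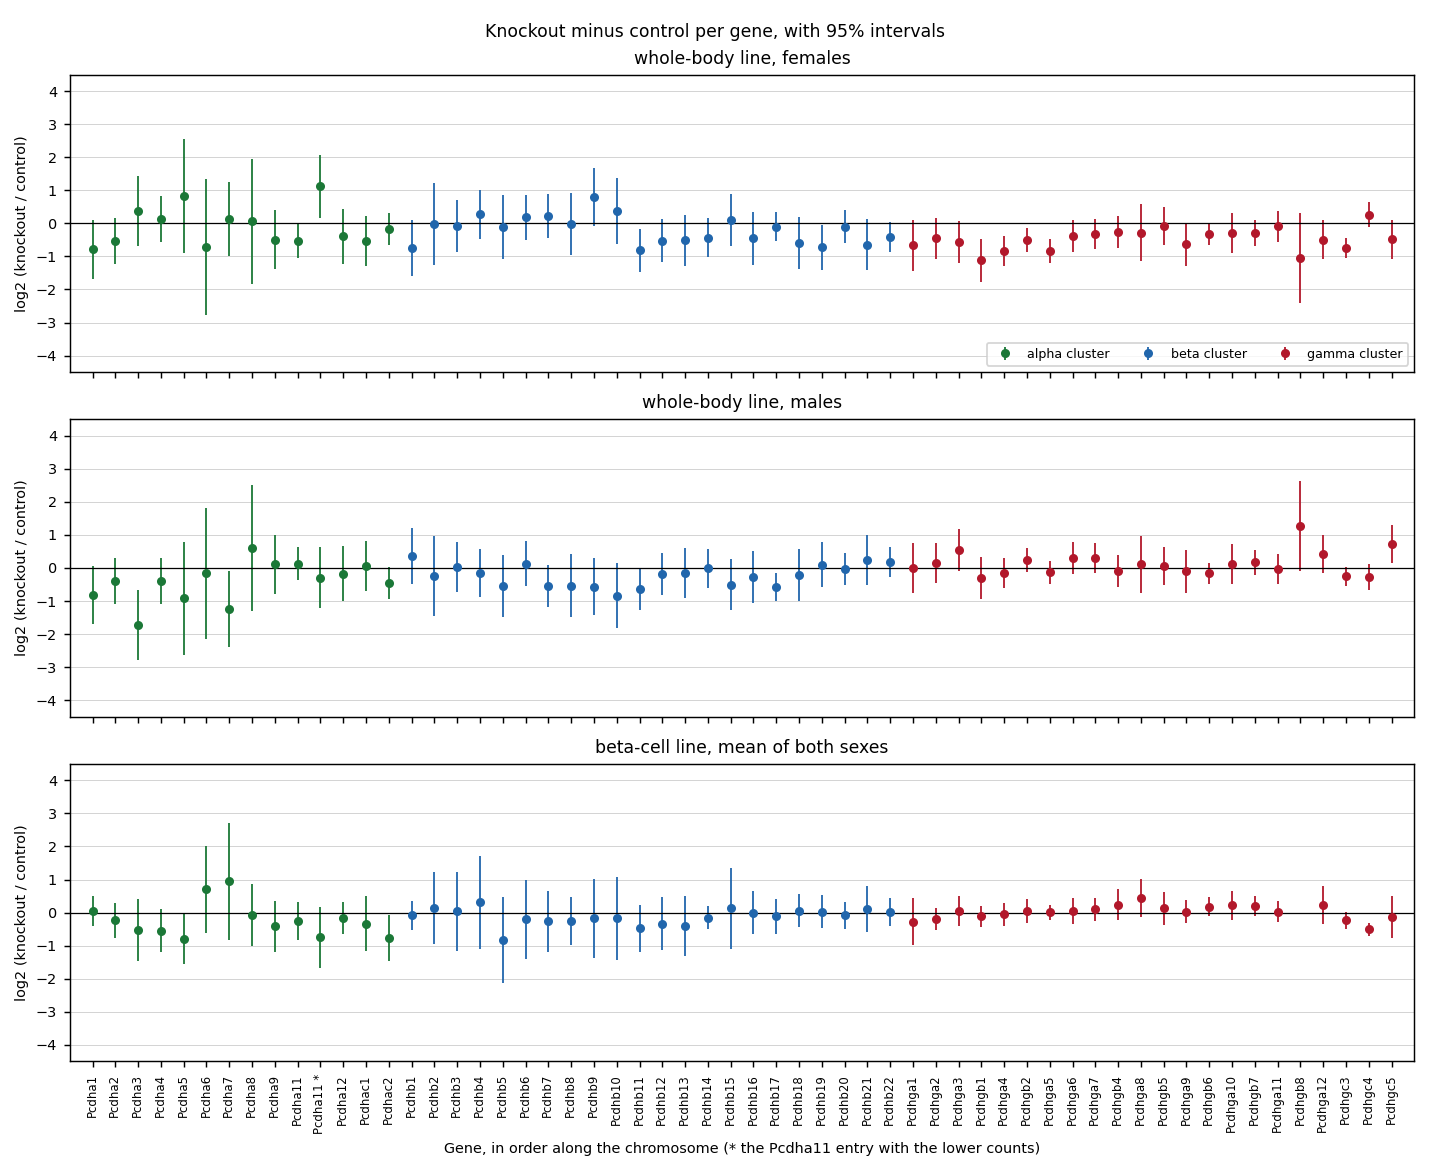
Log2 difference between knockout and control for each clustered protocadherin gene (points) with its 95% interval (lines), from edgeR, in whole-body females, whole-body males and the beta-cell line (mean of both sexes). In females 21 of 22 gamma points lie below 0, while the male gamma points lie around 0.08.

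Pcdhga5, one of the variable gamma isoforms, had 17.5, 17.5 and 17.5 CPM in the 3 whole-body knockout females and 36.9, 35.1 and 22.0 CPM in the control females. In males it had 22.5, 24.0 and 25.0 CPM in knockouts and 26.1, 25.4 and 27.0 CPM in controls. Every knockout was below every control of its sex, with control females 1 and 2 far above all others. The log2 difference was -0.84 (SE 0.16, edgeR adjusted p = 0.444) in females, -0.13 (SE 0.16, adjusted p = 1) in males and -0.49 (SE 0.11, adjusted p = 0.475) as the mean of both sexes. In the beta-cell line Pcdhga5 was the highest member, and knockouts had 44.3, 42.1, 55.5 and 46.4 CPM and controls 42.8, 50.1, 42.4 and 50.7 CPM, females first. These overlapped in each sex, and the log2 difference was 0.01 (95% interval -0.22 to 0.24, edgeR adjusted p = 1).

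Pcdhgc3, a C-type gamma isoform, had 17.7, 19.5 and 17.9 CPM in knockout females and 36.7, 31.0 and 25.0 CPM in control females of the whole-body line. In males the knockouts had 18.7, 20.3 and 19.5 CPM and the controls 24.1, 21.1 and 24.5 CPM. Again no knockout reached a control of its sex. The log2 difference was -0.74 (SE 0.13, edgeR adjusted p = 0.444) in females, -0.25 (SE 0.13, adjusted p = 0.801) in males and -0.50 (SE 0.09, adjusted p = 0.232) as the mean of both sexes. Beta-cell knockout females had 30.1 and 27.4 CPM and control females 40.3 and 33.5 CPM, without overlap, while knockout males (34.5 and 44.5 CPM) overlapped control males (40.3 and 44.9 CPM). The log2 difference there was -0.24 (95% interval -0.49 to 0.02, edgeR adjusted p = 1).

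Pcdhga5 and Pcdhgc3 were the only 2 of 58 members whose knockout libraries all lay below the controls in both sexes of the whole-body line, which is 3.45% of members, where 0.316% of all genes did so. No member lay above in both sexes, where 0.708% of all genes did. These 2 genes share constant exons with each other and the rest of the cluster, so they are not independent observations. Without whole-body control female 3, edgeR called 3 members lower in females: Pcdhga5 (log2 difference -0.98, adjusted p = 0.00616), Pcdhgc3 (-0.81, adjusted p = 0.0409) and Pcdhga4 (-1.01, adjusted p = 0.0409). In that fit 32 of 18678 genes were called in females. It also called Pcdhga5 and Pcdhgc3 in the mean of both sexes, where 11 of 18678 genes were called. Its only control females were 1, the library rich in Rn18s, and 2, the whole-body library with the highest sum of acinar markers.

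**Figure D3:**
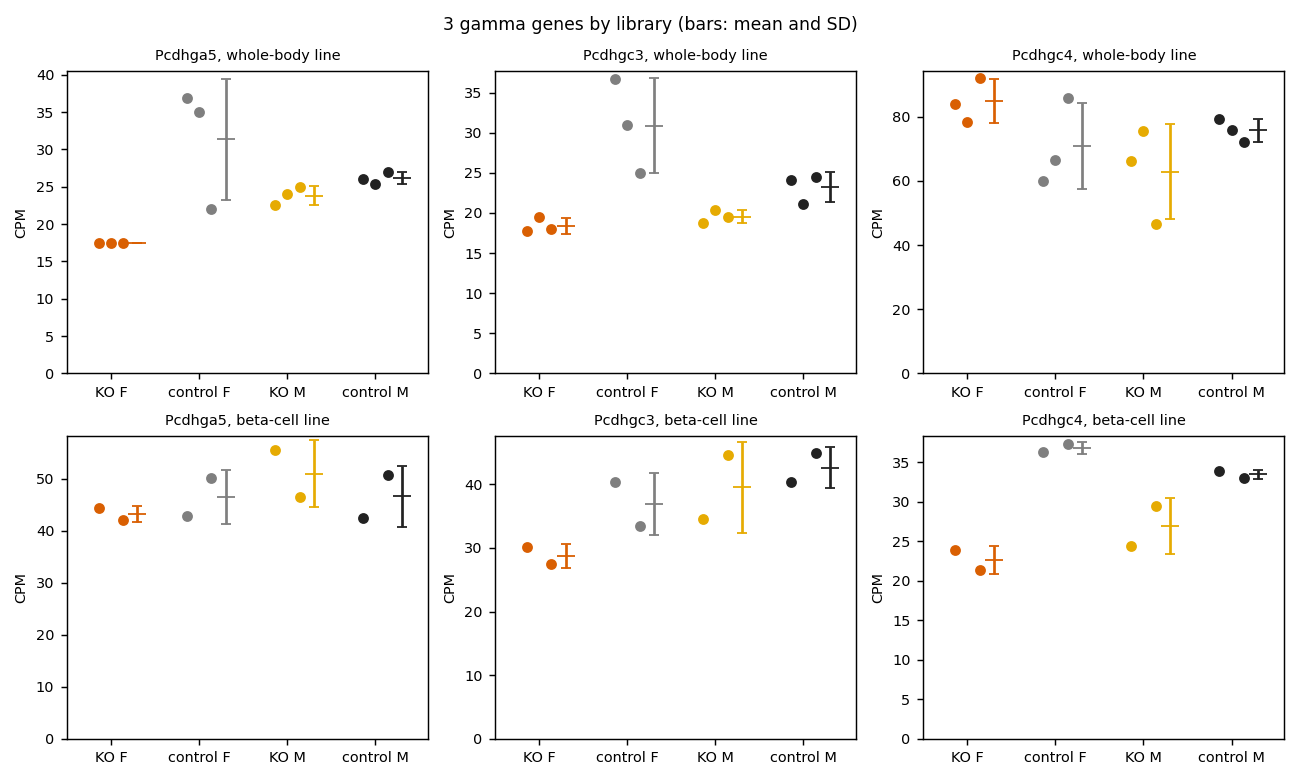
CPM of Pcdhga5, Pcdhgc3 and Pcdhgc4 in each library of the whole-body line (top) and the beta-cell line (bottom), by genotype (KO, knockout) and sex (F, female; M, male). Dots are libraries and bars show mean and SD. Whole-body knockouts lie below controls for Pcdhga5 and Pcdhgc3 in each sex, and beta-cell knockouts lie below controls for Pcdhgc4 in each sex.

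Other gamma genes of whole-body females followed the same order of libraries. Pcdhga4, a variable gamma isoform, had 5.08, 4.86 and 5.13 CPM in knockout females and 11.3, 9.84 and 5.81 CPM in control females. The log2 difference was -0.83 (SE 0.21, edgeR adjusted p = 0.444). Pcdhgb1, of the B-type variable isoforms, had 3.46, 3.13 and 3.39 CPM in knockouts and 9.05, 7.80 and 4.96 CPM in controls, a log2 difference of -1.12 (SE 0.29, edgeR adjusted p = 0.444). In both genes, control females 1 and 2 were high and control female 3 was close to the knockouts. Pcdhga4 and Pcdhgb1 share 3157 and 3154 bases of exon with other members, more than any other gamma gene. They are therefore not independent observations. Knockout libraries lay entirely below controls for 9 members in females (15.5%, against 6.33% of all genes), of which 8 were gamma genes: Pcdhga1, Pcdhgb1, Pcdhga4, Pcdhgb2, Pcdhga5, Pcdhgb6, Pcdhgc3 and Pcdhgc5. In males 9 members did so too (15.5%, against 6.31% of all genes), but 4 of these were alpha genes and 2 were gamma genes. Knockouts lay entirely above controls for 1 member in females, Pcdhb9 (1.72%, against 6.29% of all genes), and for 3 in males, Pcdhgb8, Pcdhga12 and Pcdhgc5 (5.17%, against 7.01%).

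Summed over the 21 gamma genes other than Pcdhgc4, the whole-body knockout females had 122, 129 and 135 CPM and the control females 219, 207 and 138 CPM. Knockout males had 161, 152 and 187 CPM and control males 161, 158 and 169 CPM. The ratio of the means was 0.68 in females and 1.03 in males. Only control females 1 and 2 lay above the range of the other 10 libraries, while control female 3 lay next to the highest knockout female. Both high controls were 188 days old, as was knockout female 1, which had 122 CPM. Control female 1 was the library rich in Rn18s, and control female 2 had the highest summed level of the 9 acinar markers, 36781 CPM against 250.4 to 8874 CPM in the other 11 whole-body libraries. The part of ribosomal RNA and acinar RNA in these values was not tested. Without control female 1 the median gamma difference in females was -0.30, and without control female 2 it was -0.27. Without control female 1 the log2 difference in females was -0.70 for Pcdhga5, -0.60 for Pcdhgc3, -0.63 for Pcdhga4 and -0.93 for Pcdhgb1.

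**Figure D4:**
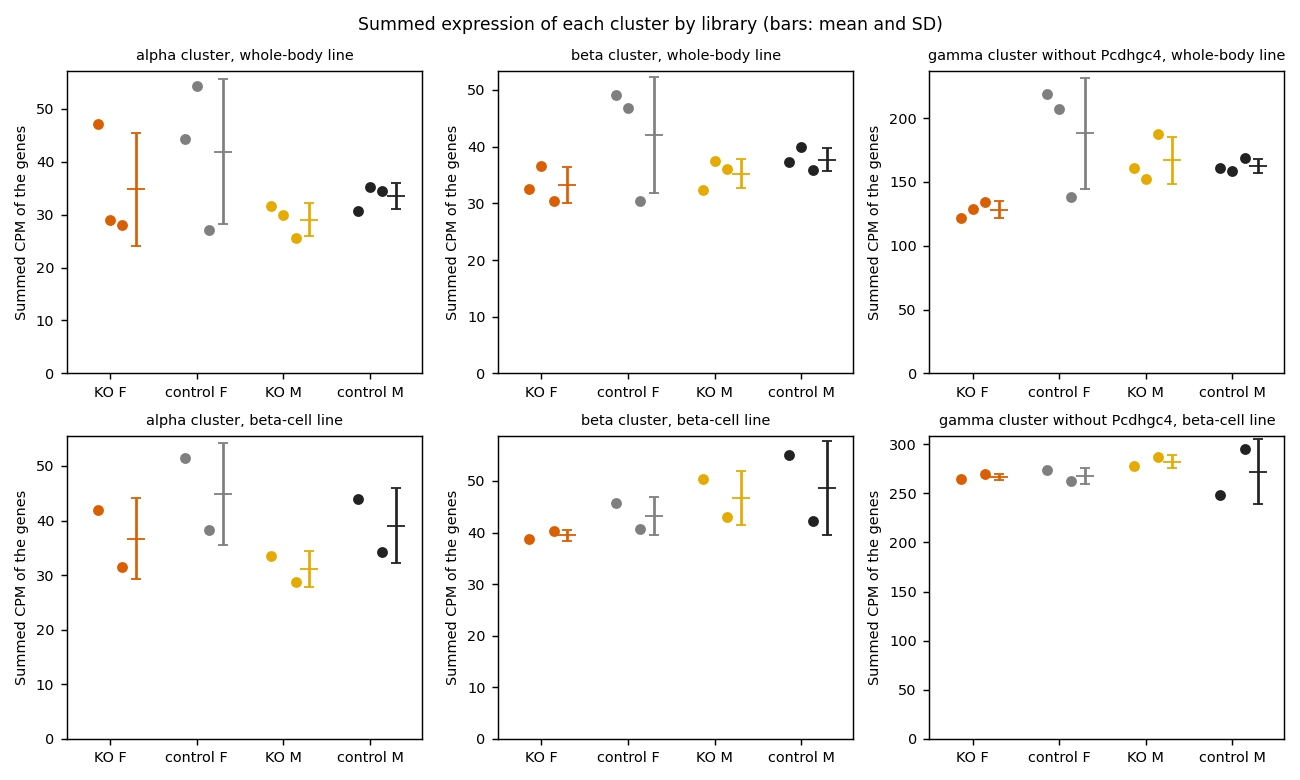
Summed CPM of the alpha, beta and gamma genes (gamma without Pcdhgc4) in each library, by genotype (KO, knockout) and sex (F, female; M, male), for the whole-body line (top) and the beta-cell line (bottom). Dots are libraries and bars show mean and SD. Whole-body control females 1 and 2, at 219 and 207 CPM, stand above all other libraries of that line in the gamma panel.

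Pcdhgc4, the gene with the highest level, was not lower in whole-body knockout females. Their libraries held 84.1, 78.4 and 92.1 CPM of it, and those of control females held 60.0, 66.4 and 85.8 CPM. The groups overlapped. In males the knockouts had 66.3, 75.5 and 46.6 CPM and the controls 79.2, 75.9 and 72.0 CPM, which overlapped too. The log2 difference was 0.26 (SE 0.17, edgeR adjusted p = 0.553) in females and -0.27 (SE 0.17, adjusted p = 0.932) in males. It was -0.004 as the mean of both sexes (95% interval -0.28 to 0.27, edgeR adjusted p = 1), a value whose sign changed with the setting. As a share of the gamma level in CPM per kb, it made up 38.2%, 35.2% and 37.9% in knockout females and 19.8%, 22.2% and 35.7% in control females. Control female 3 was again beside the knockouts.

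In the mean of both sexes of the whole-body line, 51 of 58 members had a log2 difference below 0 (87.9%, against 46.3% of all genes), with a median of -0.20 against 0.02 over all genes. That median was -0.13 without control female 1 and -0.10 without control female 2. edgeR called none of the members and 0.0327% of all genes. edgeR had 8 members at an unadjusted p under 0.05, all lower, 13.8% against 5.90% of all genes. Besides Pcdhgc3 and Pcdhga5 these included Pcdhb11, a beta gene (log2 difference -0.72, SE 0.20), Pcdhgb1 (-0.72, SE 0.20) and Pcdha1, an alpha gene (-0.79, SE 0.28), whose edgeR adjusted p-values were 0.621, 0.621 and 0.724. DESeq2 called 2 members, Pcdhgc3 and Pcdhga5 (3.45%, against 1.07% of all genes), and had 10 at an unadjusted p under 0.05. limma-voom called none and had 7. Counts of members are given as a description, since genes that share exons do not vary independently.

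Pcdhb11, which has no constant exons, had 1.37, 0.97 and 0.81 CPM in knockout females and 2.05, 2.20 and 1.33 CPM in control females. Knockout males had 1.37, 1.57 and 0.95 CPM and control males 2.00, 2.24 and 1.77 CPM. Male libraries did not overlap, and in females knockout 1 lay just above control 3. Pcdha3, an alpha gene near the detection limit, had 0.40, 0.29 and 0.28 CPM in knockout males and 0.86, 1.65 and 0.72 CPM in control males. Its log2 difference in males was -1.72 (SE 0.49, edgeR adjusted p = 0.594), while its female libraries overlapped, with 0.80, 0.29 and 1.13 CPM in knockouts and 0.53, 0.68 and 0.49 CPM in controls. Sums of acinar, immune and duct markers differed with genotype in males without overlap. The 9 acinar markers summed to 250.4 to 909.1 CPM in knockouts and 2958 to 8874 CPM in controls. The 7 immune markers summed to 47.9 to 79.9 CPM in knockouts and 132 to 193 CPM in controls. The 6 duct markers went in the opposite direction, with 243 to 364 CPM in knockouts and 184 to 220 CPM in controls. Taken singly, all 6 duct markers overlapped. Knockout male 2 was below every control male for Krt19, Sox9 and Muc1 and above them for Krt7. Of the immune markers, Adgre1 and Cd68 overlapped and the others did not. No listed acinar, immune or duct marker was at 0 in every library. Their part in the male values was not tested.

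The knockout effect was more positive in males than in females for 40 of 58 members, and for 21 of 22 gamma genes. The median log2 difference of effects (male minus female) was 0.36 over the members and 0.61 over the gamma genes, against 0.03 over all genes. No member passed edgeR's test of this difference, and 0% of all genes did. At an unadjusted p under 0.05 stood 12 members with edgeR (20.7%, against 10.9% of all genes), 13 with DESeq2 and 7 with limma-voom, and neither of these called a member. Of the 12, 9 were gamma genes, all more positive in males, with Pcdhgc5 (1.2, SE 0.38), Pcdhgb2 (0.75) and Pcdhga5 (0.70, SE 0.23) among the smallest p-values and edgeR adjusted p-values of 0.321, 0.326 and 0.329. The 3 others were Pcdha3 (-2.11), Pcdha11 (ENSMUSG00000102206, -1.42) and Pcdhb9 (-1.36). The median over the members was 0.08 without control female 1 and 0.10 with limma-voom, while that over the gamma genes stayed at 0.43 or above in all alternatives.

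Pcdhgc5, a C-type gamma isoform of low level, had 0.61, 0.63 and 0.54 CPM in knockout females and 0.99, 0.81 and 0.69 CPM in control females. In males the order was turned, with 0.82, 0.73 and 0.63 CPM in knockouts and 0.37, 0.56 and 0.40 CPM in controls. Libraries did not overlap in either sex. Its log2 difference was -0.48 (SE 0.27, edgeR adjusted p = 0.490) in females and 0.73 (SE 0.26, adjusted p = 0.594) in males.

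For the beta-cell line the members lay around their controls, and Pcdhgc4 had the smallest p. The median log2 difference over 57 members, as the mean of both sexes, was -0.08 against 0.003 over all 16284 genes tested, with 32 members below 0. It was -0.0002 without control male 1. edgeR called none of them and 0.0368% of all genes. edgeR had 3 members at an unadjusted p under 0.05, all lower (5.26%, against 3.65% of all genes). DESeq2 called 1, Pcdhgc4 (1.75%, against 0.233% of all genes), with 3 members at an unadjusted p under 0.05, and limma-voom called none, with 2. The median over the alpha genes was -0.29 and that over the gamma genes 0.04.

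Pcdhgc4 had 23.8 and 21.4 CPM in beta-cell knockout females and 36.3 and 37.3 CPM in control females. In males the knockouts had 24.4 and 29.4 CPM and the controls 33.8 and 33.0 CPM. All 4 knockouts were below all 4 controls, and the log2 difference was -0.51 (SE 0.09, 95% interval -0.71 to -0.30, edgeR adjusted p = 0.410). DESeq2 gave -0.52 with an adjusted p of 0.000954. Its share of the gamma level was 7.42%, 6.58%, 7.26% and 8.40% in knockouts and 10.6%, 11.2%, 10.9% and 9.07% in controls, females first. The sum of the other gamma genes overlapped between genotypes, at 264 to 287 CPM in knockouts and 249 to 296 CPM in controls.

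The predicted gene Gm38182, which shares exons with all 22 gamma genes in the annotation, had 1.52, 1.66, 1.58 and 1.85 CPM in the beta-cell knockouts and 2.67, 2.42, 2.997 and 2.67 CPM in the controls, females first. In the whole-body line it had 0.62, 0.48 and 0.34 CPM in knockout females and 0.79, 1.23 and 0.74 CPM in control females, without overlap. Its male libraries there overlapped, at 0.96, 0.52 and 0.88 CPM in knockouts and 0.75, 0.61 and 0.82 CPM in controls. Gm38182 was looked at after its values were seen and was not counted as a member. Alpha-cell markers, led by the glucagon gene, moved with genotype in the beta-cell line: the sum of 6 markers was 67837 to 69342 CPM in knockout females and 78331 to 125421 CPM in control females, and 29022 to 30301 CPM in knockout males and 36441 to 40077 CPM in control males. The sum of the 7 neuronal markers tested was 141 to 151 CPM in knockout females and 164 to 231 CPM in control females. In males it was 122.5 to 130.8 CPM in knockouts and 130.9 to 137.8 CPM in controls, which nearly met. Most of the sum was Snap25 and Th. Taken singly, all 7 neuronal markers overlapped in males, and in females only Snap25 was lower without overlap. In beta-cell females alone, the sum of 4 delta and PP markers was also lower without overlap. It was 10776 to 12032 CPM in knockouts and 13230 to 19459 CPM in controls. Of these markers, Sst and Hhex were each lower without overlap in both sexes, Rbp4 in females only, and Ppy overlapped in each sex. Sst had 3750 and 3828 CPM in knockout females and 7046 and 6351 CPM in control females. Male knockouts had 2215 and 2383 CPM of it and male controls 2772 and 2869 CPM. The sum of 7 endothelial markers was lower without overlap in females (386 to 387 and 491 to 575 CPM). That of the 9 acinar markers was higher there (22932 to 48154 CPM in knockouts, 18162 to 22238 CPM in controls), though Cela2a, Ctrb1 and Try5 overlapped. No listed marker of these types was at 0 in every library. The part of these cells in the Pcdhgc4 difference was not tested.

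The 2 alpha genes with an unadjusted p under 0.05 were Pcdhac2 and Pcdha5. Pcdhac2, a C-type alpha isoform, had 2.83 and 3.10 CPM in knockout females, 8.55 and 3.21 CPM in control females, 2.79 and 2.66 CPM in knockout males and 4.42 and 3.56 CPM in control males. The highest value was that of control female 1, and the log2 difference was -0.77 (SE 0.30, edgeR adjusted p = 1). Pcdha5 had 0.54 and 0.49 CPM in knockout females, 0.75 and 1.04 CPM in control females, 0.70 and 0.40 CPM in knockout males and 1.13 and 0.77 CPM in control males. Its log2 difference was -0.79 (SE 0.33, edgeR adjusted p = 1). Pcdhgc4, Pcdhac2 and Pcdha5 were the 3 of 57 members whose knockouts lay below the controls in both sexes (5.26%, against 2.83% of all genes), and none lay above (against 3.08% of all genes). Within females alone, knockouts lay below controls for 16 members, 9 of them beta genes (28.1%, against 15.9% of all genes), and in males for 5 (8.77%, against 11.7%). They lay above controls for 3 members in females (5.26%, against 15.7%) and 5 in males (8.77%, against 14.3%). In the whole-body line Pcdhac2 was lower without overlap in males only, with a log2 difference of -0.46 (SE 0.22, edgeR adjusted p = 0.696), and Pcdha5 overlapped in both sexes.

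The knockout effects of the 2 lines were compared in 1 fit over all 20 libraries. edgeR called no member and 0.0184% of all genes. There were 5 members at an unadjusted p under 0.05 with edgeR (8.77%, against 3.41% of all genes), 6 with DESeq2 and 4 with limma-voom, none called by the latter tools. The smallest p was that of Pcdhga5, whose effect was higher in the beta-cell line (log2 difference of effects 0.50, SE 0.16, edgeR adjusted p = 0.973). For Pcdhgc4 it was lower (log2 difference of effects -0.49, SE 0.17, edgeR adjusted p = 0.973). Neither difference between the lines passed the threshold, so these data do not show that the 2 genes respond differently in them.

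Between males and females of the whole-body line edgeR called no member and 5.65% of all genes. In all, 8 members stood at an unadjusted p under 0.05 (13.8%, against 23.1% of all genes). Pcdhgb4, a B-type gamma isoform, had the smallest adjusted p. It had 2.62, 2.31 and 2.65 CPM in knockout females, 3.83, 3.14 and 2.21 CPM in control females, 4.79, 3.73 and 3.09 CPM in knockout males and 4.47, 3.89 and 4.06 CPM in control males. Its log2 difference was 0.53, higher in males (SE 0.16, edgeR adjusted p = 0.0761), and the sexes overlapped. limma-voom called Pcdhgb4 (0.59, adjusted p = 0.0410), 1.72% of members against 5.89% of all genes. DESeq2 called it with Pcdhb8, Pcdha8 and Pcdha7, which were lower in males, 6.90% of members against 14.5% of all genes. Without control female 1, edgeR called Pcdhgb4 (0.62, adjusted p = 0.0350), among 1164 of 18719 genes called. Without control female 3 it called Pcdhb2 (-1.28, adjusted p = 0.0381), among 1656 of 18678 genes. Without knockout male 1 it called Pcdha7 (-1.48, adjusted p = 0.0371), among 1181 of 18710 genes. With age as a covariate it called Pcdha12, higher in males (0.74, adjusted p = 0.0439), among 616 of 18359 genes. Each was the only member called in its fit.

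Between the sexes of the beta-cell line edgeR called no member and 0.104% of all genes. At an unadjusted p under 0.05 stood 9 members with edgeR (15.8%, against 14.3% of all genes), 11 with DESeq2 and 8 with limma-voom, and neither of these called one. The smallest p was that of Pcdhga2, a variable gamma isoform, with a log2 difference of -0.45 (male minus female, edgeR adjusted p = 0.244). Pcdhgc3 was next, at 0.33 (SE 0.11, edgeR adjusted p = 0.257).

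The spread between libraries of 1 group was set against that of genes of like level. Within groups of the whole-body line, the SD of log2 CPM was above the median of genes of like level for 14 of 14 alpha, 10 of 22 beta and 14 of 22 gamma genes, where by construction as many of all genes lie above as below. The beta-cell line had 12 of 14, 14 of 22 and 17 of 21. Pcdha8 varied most in the whole-body line, with a within-group SD of 0.92 against 0.29 for genes of like level. It had 6.32, 3.23 and 1.16 CPM in knockout females, 1.85, 7.25 and 1.12 CPM in control females, 2.31, 0.36 and 1.3 CPM in knockout males and 0.57, 0.59 and 1.43 CPM in control males. The highest library was 19.9 times the lowest, and the highest values were those of control female 2 and knockout female 1.

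After those values of Pcdha8 were seen to differ between samples of different ages, an age slope was fitted in the whole-body line, with a mean for each group. The slope was positive for 47 of 58 members, with a median of 0.11 on the log2 scale per 30 days, against 9266 of 18359 and a median of 0.001 over all genes. Without control female 3 the members' median was 0.003. edgeR called no member and 0% of all genes. At an unadjusted p under 0.05 stood 9 members, all positive, and 1748 of all 18359 genes. DESeq2 and limma-voom were not run on it. Pcdha12, an alpha gene, had 3.8, 2.94 and 1.63 CPM in knockout females of 188, 165 and 98 days and 4.10, 5.08 and 1.77 CPM in control females of 188, 188 and 109 days. Males of 111 to 155 days had 3.14 to 4.67 CPM. Its slope was 0.42 per 30 days (SE 0.08, edgeR adjusted p = 0.517). The slopes of Pcdhb1 (0.41, SE 0.09), Pcdha8 (0.83, SE 0.24) and Pcdhac1 (0.31, SE 0.09) had the same adjusted p. The slope of Pcdha8 restates the values that prompted the fit, and without this gene the counts were 46 of 57 positive and 8 at an unadjusted p under 0.05. Of the genes with the smallest p below 0, Pcdhgc4 had -0.12 (SE 0.06, edgeR adjusted p = 0.517). All 188-day samples were female and none was male, and 1 of them gave the library rich in Rn18s.

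**Figure D5:**
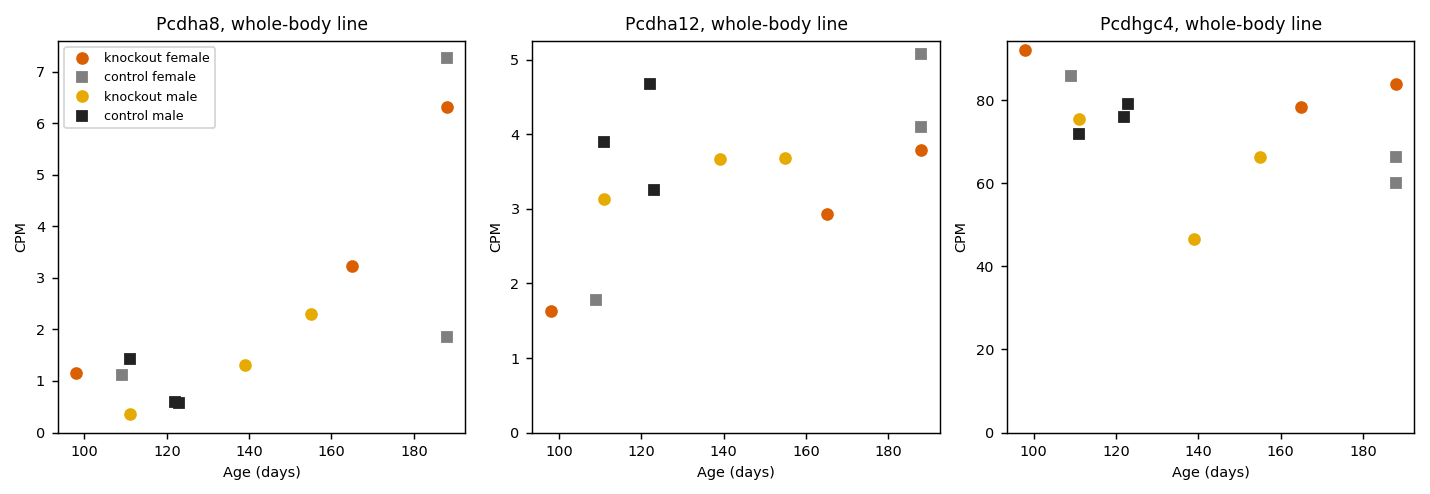
CPM of Pcdha8, Pcdha12 and Pcdhgc4 against age in days in the 12 whole-body libraries (circles, knockout; squares, control; colours give genotype and sex). The highest Pcdha8 values, 7.25 and 6.32 CPM, belong to 188-day females, while the other 188-day female had 1.85 CPM.

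Genes that act with the clustered protocadherins were followed as fixed lists. In the knockout comparisons of both lines edgeR called none of the 23 genes of promoter choice and chromatin, the 17 signalling partners of the tails, the 8 genes of protein cleavage, the 12 non-clustered protocadherins (11 tested in the beta-cell line) or the 11 classical cadherins and catenins. The smallest p-values in the whole-body mean of both sexes were those of the receptor tyrosine kinase gene Ret (log2 difference -0.27, SE 0.11, edgeR adjusted p = 0.786) and of Pcdh15, a non-clustered protocadherin (-0.45, SE 0.18, adjusted p = 0.786). At an unadjusted p under 0.05 stood 0, 2, 0, 2 and 1 genes of the 5 lists there, and 1, 1, 0, 0 and 1 in the beta-cell line.

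Between the sexes of the whole-body line, 5 of the 71 genes of these lists passed the edgeR threshold, 4 lower and 1 higher in males. That is 7.04%, near the 5.65% of all genes. Dnmt1, the maintenance DNA methyltransferase, was lower in males by a log2 difference of -0.36 (SE 0.07, edgeR adjusted p = 0.0185), and so was the cohesin loader Mau2 (-0.36, SE 0.09, adjusted p = 0.0483). Mau2 had 44.3 and 38.2 CPM in control females 1 and 2 and 23.5 to 29.7 CPM in the other whole-body libraries. Its knockout females (28.7, 27.9 and 25.1 CPM) overlapped its knockout males (25.1, 24.5 and 27.5 CPM). Of the signalling partners, the focal adhesion family kinase gene Ptk2b (-0.41, SE 0.07, adjusted p = 0.0117) and Ret (-0.48, SE 0.11, adjusted p = 0.0276) were lower in males. None of these 4 was called in the beta-cell line, whose lists had no call between the sexes. Only 0.104% of all genes were called there, so the absence of a call does not show a difference between the lines.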

How the data were processed

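The authors deposited expected counts (RSEM estimates per gene, held as whole numbers and unscaled), made by alignment to mm10 (STAR 2.5.3a, RSEM 1.3.0), per the submitters' processing notes. Their annotation and strand setting are not given in the sources used here. The beta-cell tables list fewer genes, and those in both (16284) were used. Counts were scaled by TMM and tested with edgeR 4.0.16 (quasi-likelihood, robust, filterByExpr, 1 mean per line, genotype and sex group, R 4.3.3), with Benjamini-Hochberg adjustment over all genes and a threshold of 0.05. DESeq2 1.42.0, limma-voom 3.58.1 and other settings were alternatives. Named genes were the 12 highest in CPM per kb, up to 4 per direction with the smallest p, those whose libraries did not overlap in both sexes, and up to 4 per pathway list; 1 gene under this rule is not reported here. The members and lists were chosen with earlier results of these data known. Exon lengths came from GENCODE vM21, which matched all 58 genes. The functions were tested on simulated data. No pair of replicates agreed within sampling noise. The labels call the whole-body knockout females biological replicates, and those of the other samples say only replicate. None says whether a sample is 1 mouse or a pool, and p-values measure the spread between these samples.

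In the beta-cell line, knockout and control samples with the same number and sex had equal ages and deviated together (correlation 0.22 in females and 0.393 in males). With 2 samples per group, both pairs of a sex must give the same correlation, so each sex gives only 1 value. In males the pairs also differed in age, at 111 and 80 days. Samples of the same number and sex were treated as pairs in an alternative fit.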

Additional observations from a re-analysis of the deposited data

How the results depend on the processing

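The count of members called was 0 in every comparison with edgeR, and it stayed 0 wherever RLE scaling or no low-count filter was run. It also stayed 0 in whole-body females and males with only the 6 libraries of the sex, and in females and the mean of both sexes without Rn18s and Lars2 (chosen after seeing the data). DESeq2 called 4 in whole-body females, 2 in the mean of both sexes, 4 between males and females of that line and 1 in the beta-cell mean. Between the whole-body sexes limma-voom called 1 and age as a covariate 1. Leaving out 1 library gave 0 to 3 in whole-body females and 0 to 2 in the mean of both sexes, both highest without control female 3, and 0 to 1 between males and females.

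Whole-body replicate numbers did not pair the samples (correlations of same-numbered samples -0.205 to 0.171 in females and -0.227 to 0.0302 in males). With the replicate block 0 members were called, and the count over all genes went from 1, 4 and 6 to 0 in females, males and their mean. In the beta-cell line the block changed no member's call. No block could be fitted between males and females, whose samples share no block.

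DESeq2 called more genes of all tested: 121, 293 and 197 in whole-body females, males and their mean, 472 for the difference of effects between the sexes, 2660 against 1037 between the sexes, 38 against 6 in the beta-cell mean, 710 against 17 between its sexes and 14 against 3 between the lines. Without 1 library the 1037 ranged from 308 (control male 1) to 1656 (control female 3), the 17 from 0 (knockout female 1) to 24, and the age slope's 0 from 0 to 103 (knockout male 2).

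Of 1371 gene values under the alternatives 13 changed sign, all of genes not called. The whole-body mean of Pcdhgc4 was 0.00795 without the low-count filter, 0.0103 with age as a covariate and -0.0795 to 0.0985 without 1 library. That of Pcdha8 was -0.000531 to 0.964 without 1 library, Pcdhga5 in the beta-cell mean -0.0549 to 0.0791 and the age slope of Pcdhb9 -0.306 to 0.0614.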
